A study of Mus musculus with 2 samples.

Results

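The 10 genes described here encode the cytokines interleukin 1 alpha (Il1a), interleukin 1 beta (Il1b), tumor necrosis factor (Tnf) and interleukin 18 (Il18), the interleukin 1 receptor antagonist (Il1rn), the inflammasome sensor Nlrp3, the NF-kB feedback regulators Nfkbia, Nfkbiz and Tnfaip3, and Cd83, an NF-kB target of myeloid cells. They were chosen by symbol as a named set of inflammatory genes, and all 10 were found among the 27998 genes of the files. Their levels were read in 2 single-cell RNA libraries of brain cells from adult C57BL/6J mice, sorted as CD11b+/CD45+ live cells. The CD library pooled 4 mice kept on control diet for 19 days. The 6 mice of the Repop D5 library ate PLX5622, which blocks the CSF1 receptor and removes most microglia, over 14 days, followed by 5 days on the control diet. Both groups shared strain, papain dissociation, Percoll gradient and sort. As labelled, the groups differed in the PLX5622 course and in the number of mice pooled. The course and the library cannot be told apart. Each group was 1 library of pooled animals, so no test between groups was possible, and the intervals below cover counting error only and not the spread between mice.

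Interleukin 1 alpha, interleukin 1 beta and tumor necrosis factor are ligands whose receptors switch on NF-kB, a transcription factor held in the cytoplasm by IkB proteins until these are degraded. NF-kB in turn induces its own inhibitors, among them IkB alpha (encoded by Nfkbia) and the ubiquitin-editing enzyme A20 (encoded by Tnfaip3), which close the loop. Interleukin 1 beta and interleukin 18 are made as precursors that caspase-1 cleaves in the NLRP3 inflammasome. In brain, microglia and the macrophages of the meninges and perivascular spaces are well-known sources of these cytokines, and neutrophils and monocytes also carry interleukin 1 beta and the receptor antagonist.

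The CD library held 609 barcodes and 6055886 unique molecular identifiers (UMIs, counted transcript copies), with a median of 5982 per barcode. The Repop D5 library held 585 barcodes, of which 553 were retained, with 11037921 UMIs and a median of 16226 per barcode, and 1 barcode sequence occurred in both libraries. Levels are CPM, the UMIs of a gene scaled to 1000000 UMIs of the library or class, while shares of barcodes are given after thinning every barcode to 3000 UMIs. Microglia markers fixed for this work were all detected, 12 of 12 in each library, at a sum of 33172 CPM in CD against 14489 CPM in Repop D5. Neutrophil markers were also detected, 10 of 10 in each library, at a sum of 13160 CPM in CD against 2104 CPM in Repop D5. Border macrophage markers summed to 1390 CPM in CD against 254 CPM in Repop D5, where Cd209f was at 0. Erythroid markers summed to 1642 CPM in CD against 2.72 CPM in Repop D5. The median mitochondrial share of UMIs over all deposited barcodes was 2.00% in CD and 4.88% in Repop D5. Clusters rebuilt with the 10 genes and the lists of NF-kB, receptor, inflammasome and cytokine genes left out held 126 border macrophage-like, 27 monocyte-like and 23 neutrophil-like barcodes in CD, against 0, 13 and 7 in Repop D5, plus 2 endothelial-like barcodes in each. The other clusters, 431 barcodes in CD and 531 in Repop D5, expressed microglia markers, but some led with genes of another list (Slc1a3 in CD, Ms4a4c in Repop D5), so they are called the remaining barcodes. Border macrophage-like barcodes also carried the microglia marker P2ry12, at 2734 CPM against 3404 CPM in the remaining CD barcodes. Mrc1, a border macrophage marker, stood at 364 against 47.9 CPM, and the median UMIs were 17705 against 5026. The name of this class therefore does not exclude microglia RNA. The levels of the 10 genes are given over all retained barcodes and over the remaining barcodes alone.

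The start sites of 5 of the genes described below are shown first, because NF-kB feedback rests on DNA sites near such starts. Each line is the RefSeq window on GRCm38.p6 from 250 bases before to 50 bases after the start, 5′ to 3′ on the gene's strand. Capitals mark matches, on either strand, to the NF-kB consensus or to the looser half-site pair GGANNTTCC, which overlap in places. They are descriptions of letters, not sites shown to be bound.

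Tnf (chr17:35201958-35202257, minus strand): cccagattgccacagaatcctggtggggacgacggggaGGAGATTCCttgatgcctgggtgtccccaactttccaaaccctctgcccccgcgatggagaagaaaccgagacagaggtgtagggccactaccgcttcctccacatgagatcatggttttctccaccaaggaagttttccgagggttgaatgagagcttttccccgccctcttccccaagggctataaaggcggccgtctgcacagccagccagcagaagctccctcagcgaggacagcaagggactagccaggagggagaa
Il1a (chr2:129309923-129310222, minus strand): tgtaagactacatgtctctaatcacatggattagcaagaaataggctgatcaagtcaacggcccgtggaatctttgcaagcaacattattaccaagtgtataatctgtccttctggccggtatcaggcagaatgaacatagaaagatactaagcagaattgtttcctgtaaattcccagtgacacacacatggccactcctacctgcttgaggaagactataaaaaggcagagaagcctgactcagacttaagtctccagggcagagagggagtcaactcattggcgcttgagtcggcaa
Il1b (chr2:129371090-129371389, minus strand): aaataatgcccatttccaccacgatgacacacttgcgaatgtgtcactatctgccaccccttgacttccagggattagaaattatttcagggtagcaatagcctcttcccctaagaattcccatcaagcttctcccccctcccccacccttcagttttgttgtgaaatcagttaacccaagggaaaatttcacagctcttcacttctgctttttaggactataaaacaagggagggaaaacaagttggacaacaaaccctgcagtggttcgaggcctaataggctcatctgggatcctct
Nfkbia (chr12:55492598-55492897, minus strand): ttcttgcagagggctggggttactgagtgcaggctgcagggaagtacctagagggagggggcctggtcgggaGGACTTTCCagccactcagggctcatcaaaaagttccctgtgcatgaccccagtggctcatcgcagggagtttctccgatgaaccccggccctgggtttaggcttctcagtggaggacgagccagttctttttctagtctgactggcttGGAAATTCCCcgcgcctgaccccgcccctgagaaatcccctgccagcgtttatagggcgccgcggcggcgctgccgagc
Tnfaip3 (chr10:19015361-19015660, minus strand): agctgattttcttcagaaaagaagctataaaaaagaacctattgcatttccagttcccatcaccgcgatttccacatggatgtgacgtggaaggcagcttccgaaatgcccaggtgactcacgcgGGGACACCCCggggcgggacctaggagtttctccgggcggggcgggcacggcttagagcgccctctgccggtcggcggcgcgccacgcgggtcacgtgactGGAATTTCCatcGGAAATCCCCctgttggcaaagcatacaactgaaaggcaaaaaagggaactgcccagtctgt

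The Tnf window held 1 match to GGANNTTCC, 212 to 204 bases before the start. The Nfkbia window held 2 such matches, 178 to 170 and 29 to 21 bases before the start, and the second overlapped a match to the NF-kB consensus. The Tnfaip3 window, whose RefSeq start lies 247 bases from the GENCODE start of the gene, held 2 consensus matches and 1 match to GGANNTTCC. The windows of Il1a and Il1b held neither pattern, which says only that these letters are not in these 300 bases. Nfkbiz and Cd83 had no window, and that of Nlrp3, not printed here, held 1 match to each pattern. Of the 8 of 10 genes with a window, 3 held the consensus, against 4.51% of all 32851 windows, and 4 held GGANNTTCC, against 4.26%. On either strand, the TATA pattern TATAAA was in 6 of 8, against 13.6% of windows, and the AP-1 pattern TGANTCA, which the immediate early factors Fos and Jun bind, was in 3 of 8, against 7.81%. TATAAA began 32, 31 and 29 bases before the start in Il1a, Il1b and Tnf. In Il18 and Tnfaip3 it began 175 and 225 bases before the start, and in Nfkbia 19 bases after it.

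At the other end of the transcript, the motif TATTTAT of AU-rich elements, the sequences through which decay factors shorten the life of cytokine messages, occurred 8 times in the 3′ untranslated stretch of Tnf, 3 times each in Il1a and Il1b, and 2 times each in Nlrp3, Nfkbia and Tnfaip3. It was present in 6 of the 10 genes, against 29.9% of 8284 measured coding genes. Il1rn, Il18, Nfkbiz and Cd83 had none.

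Of the 10 genes, 9 reached 10 CPM in a library. By a rule of at least 1.5-fold with an exact 95% interval of the ratio clear of 1, 2 were higher in Repop D5 (Tnf and Il1a), 6 were lower (Il1b, Il18, Nlrp3, Nfkbia, Nfkbiz and Tnfaip3) and Cd83 was neither. The same rule called 16.8% of 8463 genes higher and 42.1% lower, so a gene called lower was common in this comparison and a gene called higher was not. The median log2 ratio of the 9 genes was -0.74, against -0.38 over all 8463. Over the remaining barcodes 1 was higher (Tnf; 17.4% of genes), 4 were lower (Il18, Nlrp3, Nfkbia and Tnfaip3; 40.8% of genes), and the median was -0.14 against -0.36 over all genes. Without the neutrophil-like barcodes alone, 1 was higher (16.8% of genes) and 6 were lower (42.4%), since the Il1a ratio was then just under 1.5. The split depends on the scaling: by the trimmed mean of M values every log2 ratio is higher by 0.46, 30.6% of genes were called higher and 21.3% lower, and of the 10 genes Tnf and Il1a were higher and Nfkbia and Tnfaip3 lower.

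**Figure D1:**
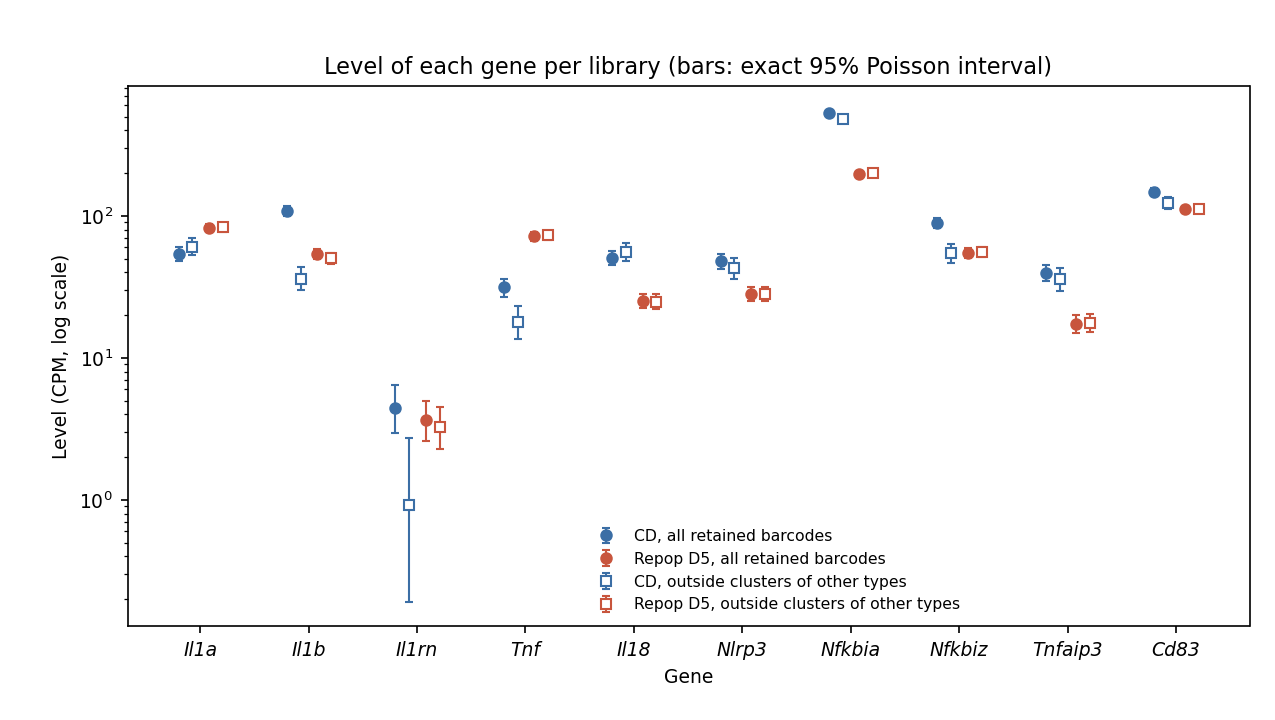
Level of each gene in CPM on a log axis, for CD (blue) and Repop D5 (red), over all retained barcodes (filled circles) and over the barcodes left when clusters named as another cell type are left out (open squares), with exact 95% Poisson intervals. Tnf was higher in Repop D5 in both sets, Nfkbia, Il18 and Tnfaip3 were lower in both, and for Il1b and Nfkbiz the open squares do not follow the circles.

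Tnf, the gene of the cytokine that signals through the receptors Tnfrsf1a and Tnfrsf1b, lies on chromosome 17 from 35199381 to 35202007 (mm10). It had 190 UMIs in CD, 31.4 CPM (27.1 to 36.2), and 793 in Repop D5, 71.8 CPM (66.9 to 77.0). The level was 2.29-fold higher in Repop D5 (1.95 to 2.70). Among the remaining barcodes it was 17.9 CPM in CD against 73.1 CPM in Repop D5, 4.08-fold higher (3.12 to 5.42), and 114 of the 190 Tnf UMIs of CD lay in the border macrophage-like cluster, which held 41.3% of all UMIs. After thinning, Tnf was found in 6.84% of CD barcodes (4.96 to 9.17) and 14.6% of Repop D5 barcodes (11.8 to 17.9), and before thinning in 16.7% and 47.6%. Among the remaining barcodes the thinned shares were 4.74% and 15.1%. Its 10 richest barcodes held 32.1% of its UMIs in CD and 31.7% in Repop D5, where the richest had 53 UMIs. In CD, 8 of these 10 barcodes were border macrophage-like, and in Repop D5 none was in a cluster named as another type.

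Il1a encodes the form of interleukin 1 that is active without cleavage by caspase-1, and lies on chromosome 2 from 129299610 to 129309972. It had 328 UMIs in CD, 54.2 CPM (48.5 to 60.4), and 903 in Repop D5, 81.8 CPM (76.6 to 87.3), 1.51-fold higher (1.33 to 1.72). This ratio lay just past the 1.5-fold rule. Among the remaining barcodes the levels were 60.9 and 82.9 CPM, 1.36-fold higher (1.17 to 1.60), on the other side of the rule but in the same direction. Unlike Tnf, Il1a was spread over the CD clusters much as the UMIs were, with 60.1% of its UMIs in the remaining barcodes, which held 53.4% of all UMIs. After thinning it was found in 14.7% of CD barcodes (11.95 to 17.8) and 18.8% of Repop D5 barcodes (15.6 to 22.3), intervals that overlap.

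Il1b, which encodes the interleukin 1 that the inflammasome matures, lies close to Il1a on chromosome 2, from 129364570 to 129371139. Over all retained barcodes it had 655 UMIs in CD, 108 CPM (100.0 to 117), and 596 in Repop D5, 54.0 CPM (49.7 to 58.5), 2.00-fold lower (1.79 to 2.24). Only 17.9% of the Il1b UMIs of CD came from the remaining barcodes, although these were 70.8% of the barcodes. The border macrophage-like cluster held 52.5%, the 23 neutrophil-like barcodes 19.2% and the 27 monocyte-like barcodes 10.2%. The level in CD was 1075 CPM (895 to 1279) in neutrophil-like, 351 CPM (272 to 446) in monocyte-like and 137 CPM (123 to 153) in border macrophage-like barcodes. With the wider neutrophil-like cluster of 42 CD barcodes at resolution 2 it was 320 CPM (274 to 371), which overlaps the monocyte-like level. In the remaining barcodes it was 36.2 CPM (29.9 to 43.4) in CD, from 117 UMIs, and 50.3 CPM (46.2 to 54.7) in Repop D5, from 541. There the direction turned, to 1.39-fold higher in Repop D5 (1.14 to 1.71), short of the 1.5-fold rule. Leaving out the neutrophil-like barcodes alone did not turn it (89.1 and 53.2 CPM, 1.68-fold lower). Neither did finer clusters at resolution 2, where 45 of the 126 border macrophage-like CD barcodes fell into a cluster counted with the remaining barcodes, 19 joined the neutrophil-like cluster and 62 were in an unnamed cluster of 68 led by Lyve1. There the Il1b ratio was 0.783 with the unnamed cluster left out and 0.643 (0.565 to 0.733) with it kept in, so the turn rests on where these barcodes are placed.

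Neutrophil transcripts were also found in barcodes outside the neutrophil-like cluster, more in CD than in Repop D5, and their part in the Il1b levels was not tested beyond the values given here. After thinning, S100a8, a neutrophil gene, was found in 96.2% of the remaining CD barcodes and 57.1% of those of Repop D5, and Ngp, another neutrophil gene, in 19.9% and 10.2%. At the ratio of Il1b to S100a9 UMIs seen in neutrophil-like barcodes, the S100a9 of the remaining barcodes would go with 7.30 of their 36.2 CPM of Il1b in CD and 0.763 of 50.3 CPM in Repop D5. That ratio was 8.75 Il1b UMIs per 1000 of S100a9 in CD. In Repop D5 it was 2.57, from only 12 Il1b UMIs in 7 barcodes, and is uncertain. In border macrophage-like CD barcodes, which held 34.8% of the S100a8 UMIs of the library, the CD ratio gave 29.2 of 137 CPM of Il1b. The neutrophil markers summed to 2365 and 850 CPM in the remaining barcodes, and the border macrophage markers to 577 and 252 CPM. Monocyte markers went the other way there, at 73.3 CPM in CD against 299 CPM in Repop D5. With the 10 genes kept in the clustering, 50 Repop D5 barcodes were named monocyte-like, at 86.4 CPM of Il1b. The part of monocyte RNA in the Il1b levels was not tested. For Tnf in the remaining barcodes the same reckoning by S100a9 gave 0.406 of 17.9 CPM and 0.127 of 73.1 CPM. These values rest on 7 Tnf UMIs in neutrophil-like barcodes of CD and 2 in those of Repop D5, and are uncertain. Of the 10 barcodes richest in Il1b, which held 33.9% of its UMIs in CD, 5 were neutrophil-like, 4 border macrophage-like, 1 monocyte-like and none was a remaining barcode. In Repop D5 the 10 richest held 35.1%, and 9 of them were remaining barcodes.

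**Figure D2:**
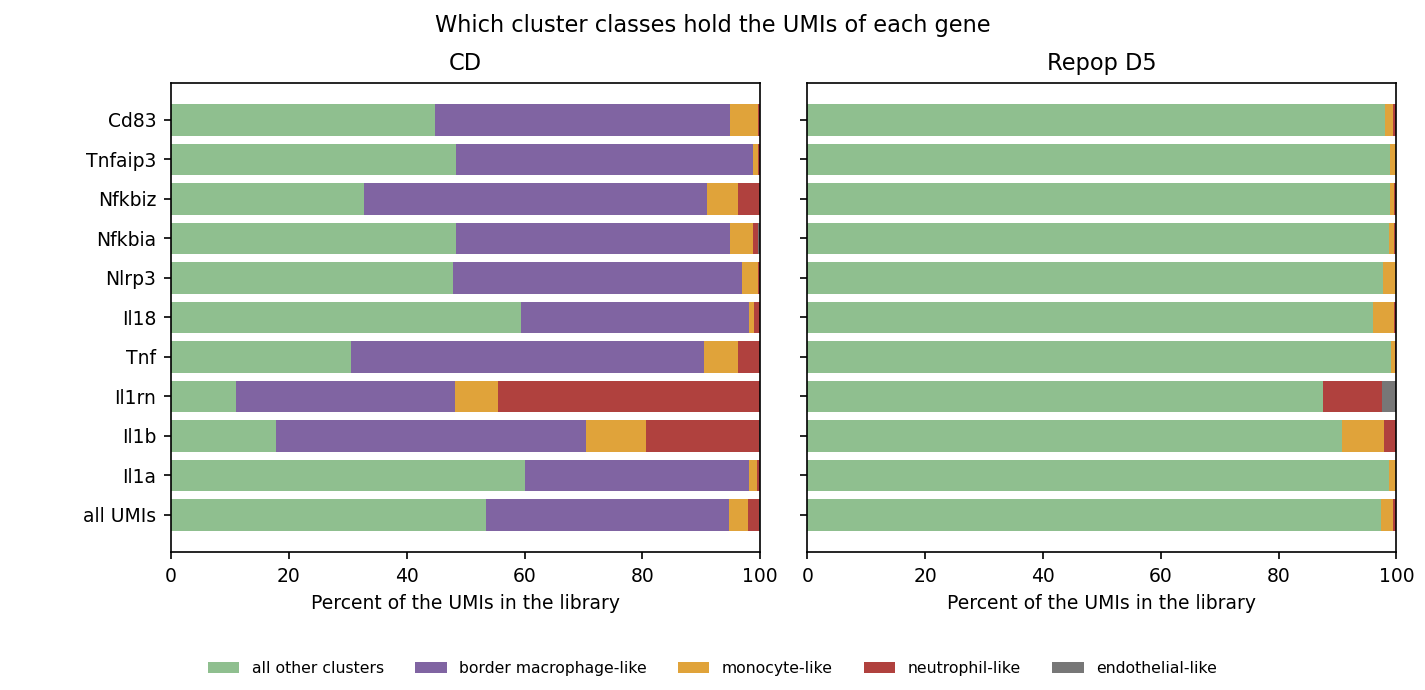
Percent of the UMIs of each gene, and of all genes, held by each class of clusters in CD (left) and Repop D5 (right). In CD the clusters named as other types held 41.3% (border macrophage-like), 3.15% (monocyte-like) and 1.94% (neutrophil-like) of all UMIs, and the other clusters held 11.1% to 32.7% of the UMIs of Il1b, Il1rn, Tnf and Nfkbiz and 44.8% to 60.1% of those of the other genes, while in Repop D5 the other clusters held 87.5% to 99.1% of the UMIs of each of the 10 genes.

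Il18, whose product joins interleukin 1 beta as a substrate of caspase-1, lies on chromosome 9 from 50554827 to 50581840. It was 50.4 CPM (44.9 to 56.3) in CD from 305 UMIs and 25.3 CPM (22.4 to 28.4) in Repop D5 from 279, 1.99-fold lower (1.69 to 2.35). Among the remaining barcodes it was 2.25-fold lower (1.85 to 2.72), from 56.0 to 24.9 CPM. Its share of barcodes after thinning was 14.5% in CD (11.8 to 17.6) and 7.96% in Repop D5 (5.84 to 10.53). The gene overlaps Bco2 on the other strand, which stood at 23.6 CPM in CD against 11.0 CPM in Repop D5, and Il1a and Il1b also overlap antisense genes (Gm14023 and Il1bos), so reads from such pairs may be mixed if strand was not used in the counting.

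Il1rn, on chromosome 2 from 24336853 to 24351494, encodes the secreted antagonist that occupies the interleukin 1 receptor without signalling. It stayed under 10 CPM in both libraries, with 27 UMIs in CD, 4.46 CPM (2.94 to 6.49), and 40 in Repop D5, 3.62 CPM (2.59 to 4.93), a ratio of 0.813 (0.487 to 1.38) that was not told from 1. In CD, 12 of the 27 UMIs (44.4%) were in neutrophil-like barcodes, at 102 CPM (52.9 to 179), and 3 were in the remaining barcodes, 0.927 CPM (0.191 to 2.71). The wider neutrophil-like cluster of 42 CD barcodes at resolution 2 held 18 Il1rn UMIs (66.7%), at 33.7 CPM (19.9 to 53.2). The remaining barcodes of Repop D5 had 35 UMIs, 3.25 CPM (2.27 to 4.53). The ratio there, 3.51, had an interval from 1.11 to 17.8, and at the Il1rn to S100a9 ratio of neutrophil-like barcodes 0.695 of the 0.927 CPM in CD would go with S100a9.

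Nlrp3, the sensor that assembles the inflammasome and is itself induced by NF-kB, lies on chromosome 11 from 59541568 to 59566956. It was 47.9 CPM (42.5 to 53.7) in CD against 28.2 CPM (25.1 to 31.5) in Repop D5, 1.70-fold lower (1.44 to 2.00). The remaining barcodes held 43.0 and 28.3 CPM, 1.52-fold lower (1.23 to 1.86). After thinning, it was found in 11.7% (9.22 to 14.5) and 8.32% (6.15 to 10.9) of barcodes. No barcode passed 7 UMIs of Nlrp3 in CD or 5 in Repop D5.

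Nfkbia, which encodes IkB alpha, lies on chromosome 12 from 55489410 to 55492647. It had 3212 UMIs in CD, 530 CPM (512 to 549), and 2174 in Repop D5, 197 CPM (189 to 205), 2.69-fold lower (2.55 to 2.84). The remaining barcodes gave 480 CPM (456 to 504) and 200 CPM (191 to 208), 2.40-fold lower (2.25 to 2.57). After thinning, Nfkbia was found in 62.4% of CD barcodes (58.4 to 66.3) and 34.9% of Repop D5 barcodes (30.9 to 39.0), whereas the shares without thinning, 79.0% and 78.7%, were the same within their intervals.

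Tnfaip3, the gene of the ubiquitin-editing enzyme A20, lies on chromosome 10 from 19000910 to 19015657. It was 39.6 CPM (34.8 to 44.97) in CD against 17.3 CPM (14.9 to 19.9) in Repop D5, 2.29-fold lower (1.89 to 2.78), and 2.04-fold lower (1.61 to 2.58) in the remaining barcodes. Its share after thinning was 9.18% (6.99 to 11.8) in CD and 4.70% (3.09 to 6.81) in Repop D5.

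Nfkbiz encodes IkB zeta, a nuclear IkB protein that helps NF-kB at a subset of its targets, on chromosome 16 from 55811375 to 55838899. Over all retained barcodes it was 89.3 CPM (82.0 to 97.2) in CD against 54.7 CPM (50.4 to 59.3) in Repop D5, 1.63-fold lower (1.45 to 1.84). In the remaining barcodes it was 54.7 CPM (47.0 to 63.4) in CD against 55.5 CPM (51.1 to 60.1) in Repop D5, a ratio of 1.01 (0.856 to 1.21), so the difference was not seen there. With clusters at resolution 2 the level outside other types was 69.8 CPM (62.1 to 78.1) in CD against 55.5 CPM in Repop D5. With the unnamed cluster kept in as well, Nfkbiz was called lower, so its loss of direction also rests on where barcodes are placed. In CD, Nfkbiz stood at 171 CPM (104 to 263) in neutrophil-like, 152 CPM (102 to 218) in monocyte-like and 126 CPM (112 to 141) in border macrophage-like barcodes. These intervals overlap, and in the wider neutrophil-like cluster at resolution 2 Nfkbiz was 103 CPM (77.5 to 134).

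Cd83, a surface protein of activated myeloid cells, lies on chromosome 13 from 43784775 to 43803132. It was 147 CPM (138 to 157) in CD against 112 CPM (106 to 118) in Repop D5, a ratio of 0.759 (0.696 to 0.828), and 124 and 112 CPM in the remaining barcodes, a ratio of 0.909 (0.811 to 1.02). Its share after thinning was 29.9% (26.2 to 33.7) in CD and 28.4% (24.7 to 32.3) in Repop D5.

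**Figure D3:**
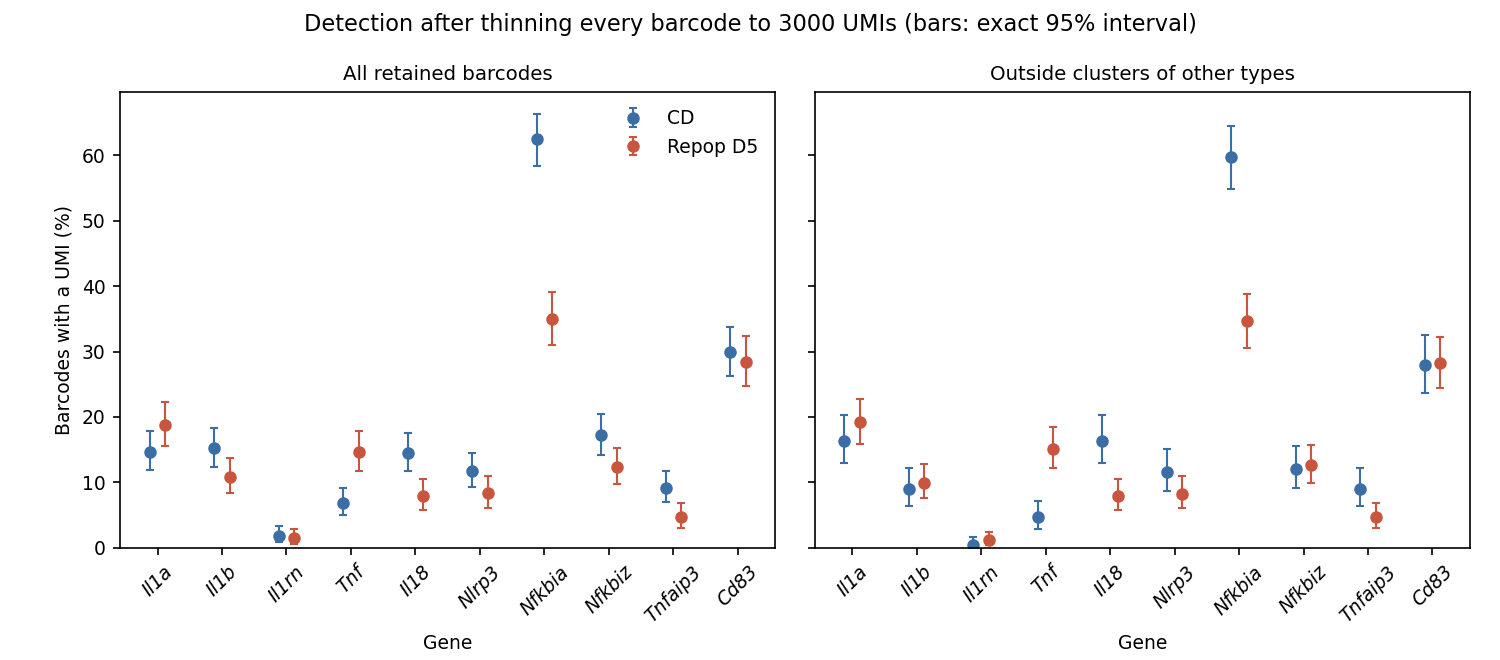
Percent of barcodes with a UMI of each gene after every barcode was thinned to 3000 UMIs, in CD (blue) and Repop D5 (red), over all retained barcodes (left) and the remaining barcodes (right), with exact 95% intervals. Tnf was found in more barcodes of Repop D5 and Nfkbia, Il18 and Tnfaip3 in fewer, while the Il1b intervals overlap in both panels.

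Within each library the levels differed between clusters. In CD, the remaining barcodes fell mainly into clusters of 186, 142 and 98 barcodes, and the last of these, led by immediate early genes such as Jun and Egr1, had 1005 CPM of Nfkbia (925 to 1091), against 232 CPM (201 to 267) in the first and 433 CPM (403 to 464) in the second. Tnf was also highest there, at 40.4 CPM (25.6 to 60.6), against 9.53 CPM (4.12 to 18.8) and 15.02 CPM (9.90 to 21.9) in the others, which overlap. Il1a was 73.7, 64.4 and 56.2 CPM in the same order, with overlapping intervals. Immediate early genes summed to 13971 CPM in the cluster of 98 barcodes, against 5823 and 7894 CPM in the other two, and these genes were among those clustered. In Repop D5, a cluster of 117 barcodes had 125 CPM of Tnf (113 to 138), against 46.1 to 59.3 CPM in the clusters of 148, 139 and 126, and also 116 CPM of Il1a, 86.7 CPM of Il1b and 279 CPM of Nfkbia. Cxcl10, Tnf and DNA replication genes such as Rrm2 and Mcm6 were among the leading genes of this cluster. The cluster of 126 barcodes, which led with G2 and M phase genes, had 47.7 CPM of Tnf and 25.4 CPM of Il1b. In all 4 of these Repop D5 clusters the Tnf interval lay above those of the 2 larger CD clusters.

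**Figure D4:**
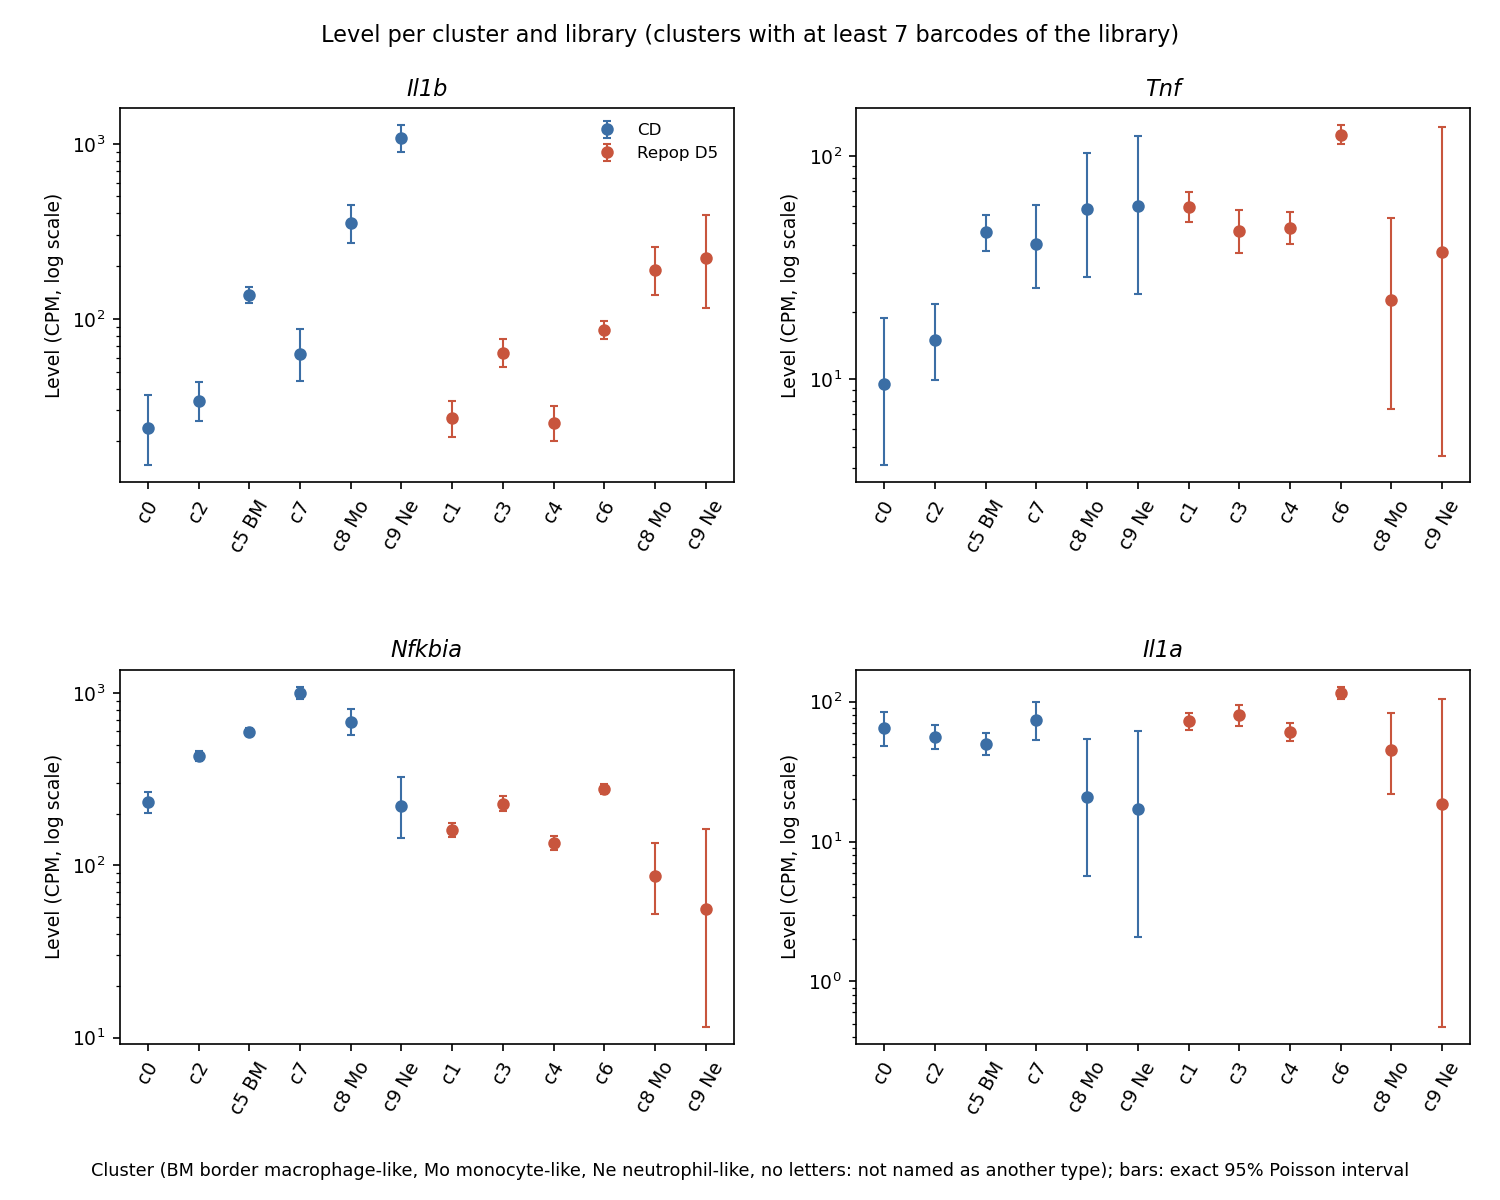
Levels of Il1b, Tnf, Nfkbia and Il1a in CPM on a log axis for each cluster with at least 7 barcodes of a library, CD in blue and Repop D5 in red, with exact 95% Poisson intervals. Il1b was highest in the neutrophil-like (Ne) and monocyte-like (Mo) clusters of CD, Tnf in cluster c6 of Repop D5, and Nfkbia in cluster c7 of CD.

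Finer clustering at resolution 2, again with the same genes left out, set 40 barcodes of Repop D5 apart together with 3 of CD. In these 40 barcodes, 7.23% of the library with 6.12% of its UMIs, were 32.7% of the Il1b UMIs, 29.8% of those of Tnfaip3, 26.6% of Tnf, 23.1% of Nfkbia and 20.2% of Il1a. The levels there were 312 CPM of Tnf (272 to 358), 289 CPM of Il1b (250 to 332), 269 CPM of Il1a (232 to 312), 745 CPM of Nfkbia (681 to 813), 84.4 CPM of Tnfaip3 (63.9 to 109) and 296 CPM of Cd83 (256 to 340). In the 8 other Repop D5 clusters of more than 20 barcodes, Tnf ranged from 19.4 to 93.1 CPM, Il1b from 13.5 to 88.9 CPM and Nfkbia from 67.4 to 272 CPM. Summed over this cluster, ligand and inhibitor genes were both high, while Il18 (19.2 CPM) and Nlrp3 (34.1 CPM) were not, and Il1rn had 0 UMIs. Whether single barcodes of the cluster held both kinds of gene was not counted. Tnf, Il1b, Il1a and Tnfaip3 were among the 10 leading genes of the cluster although none was used to build it, beside Dusp2 and Ppp1r15a, early-response genes, and the chemokine gene Ccl4. Immediate early genes summed to 7225 CPM in these barcodes, against 1225 to 3059 CPM in the 8 others. They were not left out of the clustering, so genes that vary with the 10 could still shape this cluster. The part of the tissue dissociation in this pattern was not tested.

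For each of the 45 pairs of the genes, the number of thinned barcodes with both genes was set beside the number that the product of the shares gives. Among the remaining barcodes of Repop D5, 32 of 45 pairs were above the product, and 15 of the 17 pairs whose product was at least 10 barcodes, with a median of 1.48 times the product over these 17. Il1a and Il1b were together in 19 barcodes (product 10.2) and Tnf and Nfkbiz in 18 (10.1). Il1b and Nfkbiz (14 barcodes; product 6.69), Il1b and Tnf (15; 7.98) and Tnfaip3 and Cd83 (13; 7.06) are named because at least 10 barcodes held both, which with a product under 10 they could reach only above it. In the remaining CD barcodes 29 of 45 pairs were above the product, and 14 of the 15 with a product of at least 10, with a median of 1.14. The largest excesses among these 15 were those of Il1b with Cd83, in 14 barcodes (10.6), and of Nfkbia with Nfkbiz, in 39 (30.5). Over all retained CD barcodes the pairs Tnf with Nfkbiz (13; product 7.05) and Il1b with Nfkbiz (28; 15.6) led, and these also take in the neutrophil-, monocyte- and border macrophage-like barcodes. Without thinning the order of the libraries turned, with medians of 1.33 in CD and 1.19 in Repop D5 over the remaining barcodes. Whether the libraries differ in this was not tested, and barcodes of 1 library share their source.

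**Figure D5:**
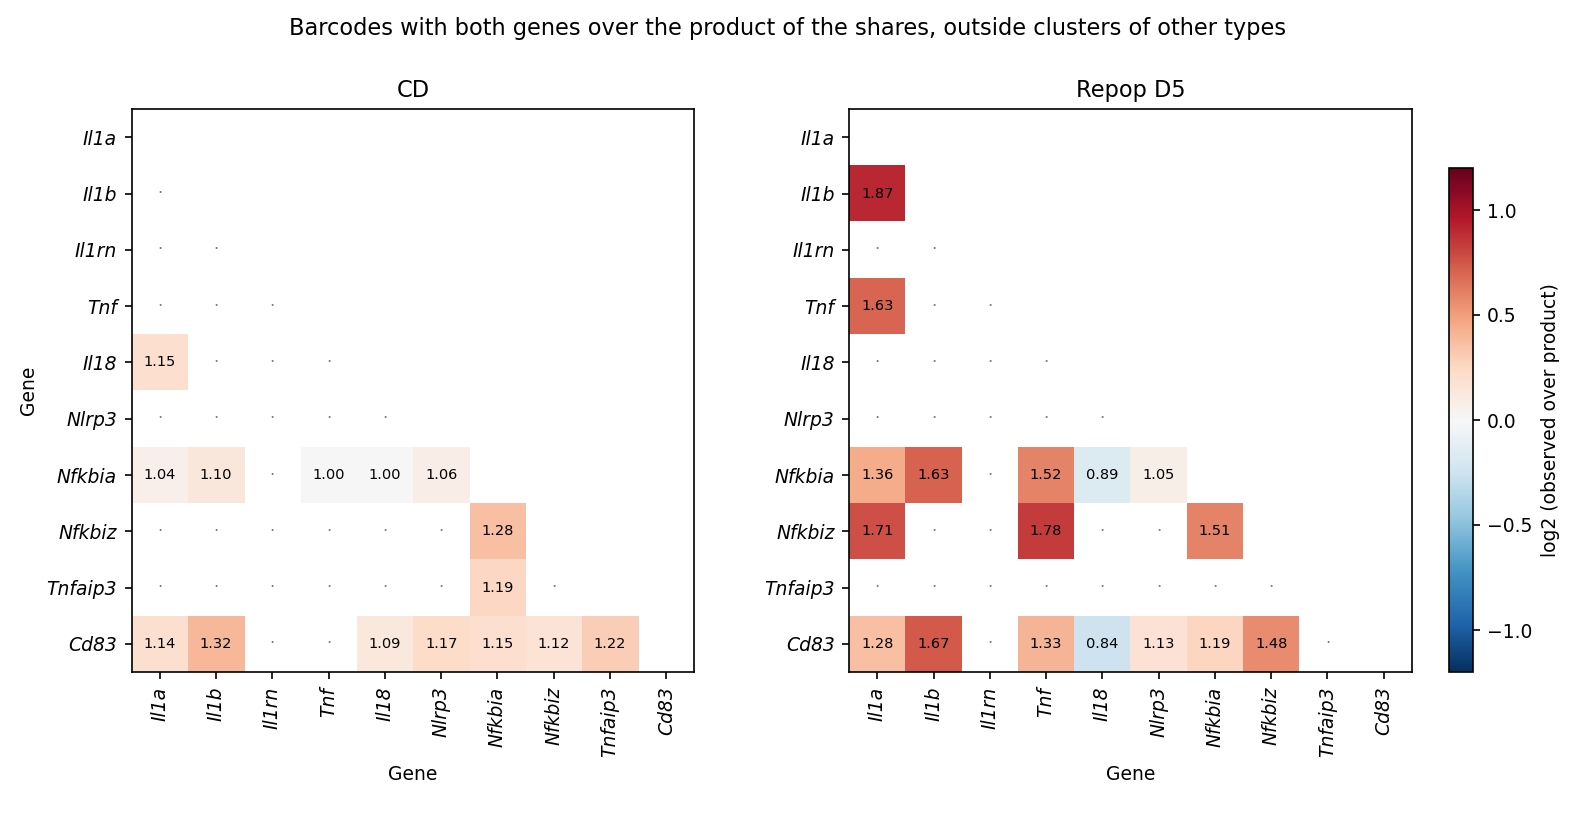
Barcodes with both genes of a pair over the number that the product of the shares gives, among the remaining barcodes thinned to 3000 UMIs, in CD (left) and Repop D5 (right). Color is on a log2 scale, and pairs whose product is under 10 barcodes are shown as a dot. In Repop D5 the highest value shown is that of Il1a with Il1b (1.87), and Il18 is below 1 with Nfkbia and Cd83.

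At least 3 of the 10 genes were found in 27.5% of thinned CD barcodes (24.0 to 31.3) and 17.2% of those of Repop D5 (14.1 to 20.6), but at least 5 in 2.84% (1.66 to 4.51) and 3.44% (2.08 to 5.31), intervals that overlap. Of the 4 genes for which the most similar genes across barcodes were sought, only Nfkbia had any with a Spearman correlation of 0.3 or more, and only in CD. Over 599 thinned CD barcodes these were the immediate early genes Fos (0.37), Jun (0.36), Junb (0.35), Zfp36 (0.33) and Egr1 (0.31), and over the 422 remaining ones Fos (0.40), Junb (0.36), Ppp1r15a (0.32), Jun (0.32) and Fosb (0.32). Across barcodes, which share library and free RNA, Nfkbia correlated with the summed immediate early genes at 0.44 in CD and 0.26 in Repop D5, and Il1b at 0.14 and 0.29. Over the remaining barcodes the values were 0.40 and 0.28 for Nfkbia and 0.04 and 0.26 for Il1b.

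The genes around the loop were described from lists of pathway genes, whose counts are to be read beside the 42.1% of all genes called lower, the 16.8% called higher and the median of -0.38. Of 11 measured NF-kB subunits, further inhibitors and kinases, 9 were lower, none was higher and the median log2 ratio was -0.96. Rela, the main activating subunit, was 63.1 CPM in CD against 27.5 CPM in Repop D5, 2.30-fold lower. Nfkb1, the gene of the p50 precursor, was 1.76-fold lower, Ikbkb, the kinase that marks IkB for degradation, 2.12-fold lower, and Nfkbie, the gene of IkB epsilon, 3.21-fold lower. Nfkbib (33.5 and 33.2 CPM) and Nfkb2 (12.7 and 11.5 CPM) were neither. Of 24 measured feedback genes and targets, 13 were lower and none higher, with a median of -0.74. Among them Tnfaip2 was 4.09-fold lower, Gadd45b 2.93-fold and Cflar, which restrains caspase-8, 2.05-fold, while Sod2, the mitochondrial superoxide dismutase, had a ratio of 1.34 and Tnfaip8 of 1.03. Over the remaining barcodes 8 of 11 subunits and inhibitors and 10 of 23 feedback genes and targets were lower, and none of either list was higher, where 40.8% of all genes were lower.

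Of 8 measured receptors and adaptors, 6 were lower and none higher, with a median of -1.09. The receptors of tumor necrosis factor were both lower, Tnfrsf1a from 170 to 76.8 CPM (2.21-fold) and Tnfrsf1b from 104 to 39.0 CPM (2.67-fold), while the level of Tnf itself was higher. Irak2, a kinase of the interleukin 1 receptor pathway, was 3.99-fold lower, and Tradd (26.6 and 25.2 CPM) and Irak4 (27.1 and 21.3 CPM) were neither. The interleukin 1 receptor genes Il1r1 and Il1r2 stayed under 10 CPM in both libraries, with 1 and 47 UMIs in CD and 5 and 22 in Repop D5.

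Of 12 measured genes of the inflammasome and of cytokine release, 1 was higher and 5 were lower, with a median of -0.46, close to the shares and the median over all genes. Rhbdf2, whose product carries the sheddase of tumor necrosis factor to the cell surface, was 2.41-fold higher (1.74 to 3.40), from 7.60 to 18.3 CPM. Txnip was 5.11-fold lower and P2rx7, the ATP-gated channel that triggers NLRP3, 2.85-fold lower. The adaptor Pycard (459 and 471 CPM) and the protease Casp1 (36.7 and 44.6 CPM) were neither.

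Among 11 other measured cytokines and chemokines, 3 were higher, 5 were lower and the median was -0.51. Cxcl10, an interferon-induced chemokine, was 7.88-fold higher (6.12 to 10.3), from 10.7 to 84.5 CPM, and Ccl5 3.29-fold higher (2.06 to 5.50), while Il16 was 4.15-fold lower and Il15 3.02-fold lower. Ccl2 was 276 and 349 CPM over all retained barcodes, but 55.6 CPM in CD against 350 CPM in Repop D5 over the remaining ones, 6.30-fold higher. Over the remaining barcodes 5 of these genes were higher and 4 lower, with a median of 0.10. Tgfb1, a cytokine that microglia need to keep their identity, was 431 and 303 CPM, a ratio of 0.703.

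Immediate early genes, which tissue dissociation is known to induce, were lower in Repop D5 in 19 of 19 measured genes, with a median of -2.04. Jun was 7.77-fold lower and Junb 3.29-fold. They were lower in 16 of 18 over the remaining barcodes, where the summed level was 8428 CPM in CD against 2219 CPM in Repop D5. Nfkbia and Tnfaip3 were lower with this group and Tnf and Il1a higher against it, and its part in their levels was not tested. Of 12 heat shock genes 5 were higher and 4 lower. Of 6 factors that bind AU-rich messages 3 were lower and none higher, with Zfp36l1 2.99-fold and Zfp36l2 2.47-fold lower and Elavl1, which stabilizes such messages, at 101 and 123 CPM. The genes of G2 and M phase, 15 of 15, were also higher, and their median log2 ratio was 4.602. With trimmed mean of M values scaling, which adds 0.46 to each log2 ratio, the medians of the inflammasome, decay factor and cytokine lists come close to 0, and those of the other lists described here keep their sign.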

How the data were processed

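Single-cell libraries were aligned and counted by the authors with Cell Ranger 2.1.0 on mm10, per the submitters' processing notes; the annotation release, the calling of cells and whether counting used strand are not given in the sources used here. The deposited matrices hold whole-number UMI counts per gene and barcode, with no normalization, and 0 further columns were left unused. The barcodes deposited, 609 and 585, equal the cells the labels state. Barcodes with at least 500 genes and under 10% mitochondrial UMIs were retained, which left out 32 in Repop D5 and none in CD.

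UMIs were summed per library or cluster and scaled to CPM, with exact 95% Poisson intervals, and ratios have exact conditional binomial intervals. Log2 ratios carry a pseudocount of 1 CPM. Shares are medians of 20 seeded thinnings to 3000 UMIs with Clopper-Pearson intervals, and 10 CD barcodes below that depth were left out. Clusters came from scanpy 1.11.5 (2000 variable genes, 30 components, 15 neighbours, Leiden resolution 1), run on both libraries together, and took a name from at least 3 markers of a type among their leading genes. Doublets were left in, and Scrublet called 3 in CD and 12 in Repop D5. Promoter windows are from RefSeq (GRCm38.p6), and coordinates and transcript ends from GENCODE M21 on the same build. The rule for calls was also run on simulated counts with counting error only, so that run cannot speak to the spread between barcodes or mice.

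The 10 genes and all lists were chosen with earlier results of these data known. All 10 are named, and from each list the named genes are among the 2 with the highest ratio, the 2 with the lowest and the 2 with most CPM. Genes named outside that rule (the barcode markers, Il1r1, Il1r2, the leading genes of clusters) were chosen after their values were seen. Alternatives used edgeR 4.0.16 for scaling by the trimmed mean of M values, other cell filters, thinned counts, the deposited pooled matrix, and clusters at resolutions 0.5 and 2 or with the genes kept in.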

Additional observations from a re-analysis of the deposited data

How the results depend on the processing

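Over 19 settings of cells, scaling and clusters, Tnf was called higher in 19 (ratio 2.13 to 5.69) and Nfkbia lower in 19 (0.368 to 0.581). Tnfaip3 and Il18 were called lower in 18 each, Nlrp3 in 14, Il1b in 12 and Nfkbiz in 11. Il1a was above 1 in 19 and called higher in 10, and Cd83 was never called but above 1 in 2. Without the clusters named as another type, the ratio of Il1b turned to 1.39 and that of Nfkbiz to 1.01. It was 1.37 and 1.02 when the 10 genes were kept in the clustering, 1.39 and 1.02 at resolution 0.5, 1.35 and 1.01 there with unnamed clusters kept, and 1.94 and 1.42 with trimmed mean of M values scaling besides. The count of higher genes fell from 2 to 1 (Tnf) in the first 4 of these settings (17.1% to 17.4% of all genes). The last setting gave 3 (Tnf, Il1a and Il1b), where 32.2% of all genes were called higher. The count was also 1 at resolution 2 without or with the unnamed cluster (17.2% and 16.8%), and with thinned barcodes (15.3%). The same held without neutrophil-like clusters (16.8%), without barcodes holding 1% neutrophil marker UMIs (16.6%), and at a ratio of at least 2 (9.61%). The count of lower genes was 3 instead of 6 with the genes kept in the clustering (40.4% of all genes) and at a ratio of at least 2 (23.8%). With trimmed mean of M values scaling it was 2, with the other types (21.3%) or without them (19.9%). The median log2 ratio was -0.14 without the other types and at resolution 0.5, -0.12 there with unnamed clusters kept, -0.10 with the genes kept, -0.35 at resolution 2, -0.30 with trimmed mean scaling, 0.34 with both, and -0.49 with totals that leave out mitochondrial and ribosomal genes. Trimmed mean scaling shifts every log2 ratio by 0.46 and moves the share of all genes called higher to 30.6% and lower to 21.3%, and the totals shift it by 0.27 (23.6% and 29.7%). Of the other values, 165 stayed within their intervals, 95 moved beyond them and 10 turned direction, the ratios of Il1b and Nfkbiz given above. At resolution 2 the ratios of Il1b and Nfkbiz stayed below 1, and both genes were called lower with the unnamed cluster kept in. The alternatives with unnamed clusters kept, with the genes kept in the clustering, without neutrophil-like clusters, without barcodes rich in neutrophil markers and with both scaling and cell types changed were chosen after seeing the data. No paired analysis was possible because each group is 1 library. At these depths Il1rn, under 10 CPM, could not be compared.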

Other observations

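The 32 Repop D5 barcodes that were left out for their mitochondrial share or few genes had a median of 6689 UMIs. Their Tnf level was 194 CPM (145 to 256) from 51 UMIs, against 71.8 CPM in the retained barcodes. Nfkbia was 290 CPM (228 to 363) and Nfkbiz 95.3 CPM (61.7 to 141), against 197 and 54.7 CPM in the retained barcodes. Il1a, at 76.2 CPM (46.6 to 118), and Il1b, at 61.0 CPM (34.9 to 99.0), had intervals that take in the retained levels of 81.8 and 54.0 CPM. With these barcodes kept, the Repop D5 over CD ratio of Tnf was 2.38.

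When the 10 genes and their lists were kept among the clustered genes, a cluster of 48 Repop D5 barcodes and 3 CD barcodes formed around them. Its 48 barcodes, 8.68% of the library, held 46.0% of the Tnf UMIs, 43.6% of those of Il1b and 51.8% of those of Tnfaip3. These values describe a cluster that the genes themselves built.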
